A study of Mus musculus with 28 samples.

Results

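Intergenic H3K27ac regions near genes were stretches of acetylated chromatin lying between genes but within reach of one. They were chosen from the list of consensus H3K27ac regions by their measured position and width. A region was taken if it lay on chromosomes 1 to 19, was under 10000 bp wide, and had its centre outside every gene body of any biotype, more than 1 kb from every gene end and less than 50 kb from the nearest protein-coding gene body. This gave 6435 of 57857 H3K27ac regions, 11.2% of those on chromosomes 1 to 19. The position, width and H3K27ac of these regions are therefore a description of what was selected, while H3.3 was not used in the selection.

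The data came from CUT&RUN, in which an antibody tethers a nuclease to its target in nuclei and the released DNA is sequenced, in the mouse embryonic stem cell line ES-E14TG2a (E14). The 28 libraries covered 3 targets, H3.3, H3K27ac and H3K122ac, plus controls that got no antibody, with 7 libraries apiece. Each of these had 2 wildtype libraries, 2 of H3f3a_AA_H3f3b_WTA from 2 clones, and 1 each of H3f3a_AA_H3f3b_WTWT, H3f3a_WTWT_H3f3b_AA and H3f3a_WTA_H3f3b_AA, where A is read here, from the title of the series, as an H3.3K122A allele. The growth protocol describes medium with LIF and medium with LIF and 2 inhibitors (2i), and the labels do not tie either to a library. The values analysed were the positions in 2 lists of consensus regions, 1 for H3K27ac and 1 for H3.3, which carry no value per library. Which genotypes entered the lists is not given in the sources used here, so genotypes were not compared, depth is unknown, and there is no replicate behind any count. Each interval given is an exact 95% Clopper-Pearson interval, which covers counting error over regions and nothing else.

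Acetylation of lysine 27 of histone H3 is placed by the acetyltransferases p300 and CBP and marks active promoters and enhancers. Enhancers are DNA elements that bind transcription factors and raise transcription of a gene that can lie at a distance, and in embryonic stem cells many are bound by OCT4, SOX2, NANOG and Krüppel-like factors. H3.3 is the histone H3 variant put into chromatin outside replication and is found at active enhancers and promoters as well as at silent repeats. The nearest gene in sequence is used below only to say where a region lies, since it need not be the gene that a region acts on.

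Some of the regions reached over the start of a gene although their centre lay outside it. The 250 bases before an annotated start (RefSeq, GRCm38.p6) lay wholly inside such a region in 45 cases, in 36 regions and at 38 genes, 31 of them protein-coding. Of these genes 3 belong to the gene lists described below, and their upstream windows are shown because the regions covering them are among the widest of their loci. They were chosen for display after the values were seen. Capitals mark matches to the searched motifs, and the sequences run 5′ to 3′ on the strand of the gene.
Klf2, chr8:72318812-72319061, plus strand: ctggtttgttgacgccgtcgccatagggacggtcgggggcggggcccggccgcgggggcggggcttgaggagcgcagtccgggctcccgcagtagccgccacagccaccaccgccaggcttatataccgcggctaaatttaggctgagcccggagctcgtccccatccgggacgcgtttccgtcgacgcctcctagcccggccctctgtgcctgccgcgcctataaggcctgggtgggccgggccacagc
Zfp42, chr8:43307010-43307259, minus strand: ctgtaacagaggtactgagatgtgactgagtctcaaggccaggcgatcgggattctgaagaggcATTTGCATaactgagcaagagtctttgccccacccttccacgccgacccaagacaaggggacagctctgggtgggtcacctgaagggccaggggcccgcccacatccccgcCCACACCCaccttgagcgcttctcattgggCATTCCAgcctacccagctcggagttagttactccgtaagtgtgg
Il6st, chr13:112463820-112464069, plus strand: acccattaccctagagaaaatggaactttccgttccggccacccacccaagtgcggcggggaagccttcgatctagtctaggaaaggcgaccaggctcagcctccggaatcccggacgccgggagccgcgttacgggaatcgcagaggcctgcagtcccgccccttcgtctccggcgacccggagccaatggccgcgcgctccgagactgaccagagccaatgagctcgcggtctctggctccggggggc

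The window of Klf2, a Krüppel-like factor of the naive state, was 71.2% G and C with 29 CpG dinucleotides, and that of Il6st, which encodes the gp130 receptor subunit used by LIF, was 66% with 26. The window of Zfp42, which encodes the stem cell marker REX1, was 58.4% G and C with 9 CpG dinucleotides. Over the 45 windows the median was 61.2% G and C and 16 CpG dinucleotides, beside 55.6% and 10 over 21263 windows of protein-coding genes. Zfp42 held the POU octamer bound by OCT4 (ATGCAAAT, found in 1.60% of all 32851 windows), the KLF motif (GGGTGTGG, 3.20%) and the TEAD motif (CATTCCA, 3.69%), each read on both strands. Klf2 and Il6st held none of the 10 motifs searched. The others were SOX (CATTGTT, 3.29%), the motif of the nuclear receptors ESRRB and NR5A2 (TCAAGGTCA, 0.387%), STAT (TTCCNGGAA, 0.913%), the T-box motif (AGGTGTGA, 1.12%), the MYC E-box (CACGTG, 6.02%), AP-1 (TGANTCA, 6.75%) and the motif of GATA factors (AGATAAG, 2.74%). A match describes letters in a window, not binding, and overlaps between motifs were allowed.

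Of 1005 annotated miRNA hairpins, 5 lay wholly inside one of the regions, and their 10 mature miRNAs had 10 distinct seeds. The hairpins of Mir296 and Mir298, which are neighbours, lay in the 9367-bp region upstream of Gnas on chromosome 2, and that of Mir181d lay in a 5291-bp region nearest to the germ cell gene Nanos3 on chromosome 8. The miRNA miR-296 is known to target pluripotency transcripts including that of Nanog, and miR-181d is a member of the miR-181 family. Their mature sequences are shown because these hairpins lie in the widest of the regions that also touched H3.3 or next to one, with the seed (bases 2 to 8) in capitals.
miR-296-5p: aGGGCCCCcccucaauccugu
miR-296-3p: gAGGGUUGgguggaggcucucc
miR-298-5p: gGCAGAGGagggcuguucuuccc
miR-298-3p: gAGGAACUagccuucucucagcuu
miR-181d-5p: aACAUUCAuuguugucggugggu
miR-181d-3p: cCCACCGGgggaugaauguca

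The regions were short, and most had another H3K27ac region of any class nearby. Their median width was 800 bp, with an interquartile range of 397 to 1571.5 bp and a range of 172 to 9982 bp, and together they covered 8.28 Mb. The median was 740 bp for intergenic regions in gene deserts, 50 kb or more from a protein-coding gene, 798 bp for regions inside genes and 863 bp for regions at gene ends, all on chromosomes 1 to 19 and under 10000 bp. Another H3K27ac region lay within 12500 bp of 5147 of the 6435 (79.98%), and the median gap was 2841 bp. In gene deserts 49.5% had such a neighbour and the median gap was 13191.5 bp. Inside genes the share was 90.2% and the gap 1660 bp, and at gene ends 84.75% and 2289 bp, so both classes lay closer to a neighbour. Runs of regions with no other H3K27ac region between them numbered 4055, of which 2772 held a single region, 552 held 3 or more and 88 held over 10 kb of acetylated sequence. The run with the most acetylated sequence held 26968 bp in 9 regions between Tex44 and Ptma, and the run with the most regions among the 10 leading ones held 16 between Kcng3 and Mta3. Of the 6435, 4455 (69.2%) had a second protein-coding gene within 50 kb, so for most the choice of the nearest gene was a choice among several.

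The regions closest to each limit of the selection lay just to either side of it. Only these regions were listed, and the properties of regions across a limit were not compared. The widest region inside the width limit measured 9982 bp (nearest Ccnb1ip1) and the next 9938 bp (Cobl), and those just outside measured 10021 bp (Zfp202) and 10036 bp (Rbpj). At the limit of 1 kb from a gene end, the nearest regions inside lay at 1000.5 bp (Aplp2 and Trim71) and those outside at 1000 bp (Dusp12 and Golga3). At the limit of 50 kb, 49994.5 bp (Zfp217) and 49927 bp (Spopl) were inside, and 50027 bp (Tmco5) and 50039 bp (Osgin2) were outside.

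Density fell with distance from genes. The sequence in which a centre could meet the rule, called eligible sequence here, measured 449 Mb, so there were 14.3 regions per Mb. The regions covered 1.72% of it, counting only the parts of regions that lay inside eligible sequence. Between 1 and 2 kb from a protein-coding gene there were 32.4 regions per Mb (836 regions), between 2 and 5 kb 21.5, between 5 and 10 kb 16.2, between 10 and 20 kb 12.95, and between 20 and 50 kb 8.90 (1517 regions). The share of eligible sequence covered fell from 2.96% in the nearest band to 1.13% in the farthest. The median width was 991 bp in the nearest band and between 726 and 824 bp in the farther ones. Among chromosomes the density ranged from 10.1 per Mb on chromosome 3 to 24.4 per Mb on chromosome 11.

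Which side of the gene held more regions differed near and far. Between 1 and 2 kb there were 42.6 regions per Mb downstream of the nearest gene and 23.6 upstream, where a strand could be assigned. The order was turned around between 10 and 20 kb, with 14.5 per Mb upstream and 10.3 downstream, and between 20 and 50 kb, with 10.0 and 7.96. Over all distances the sides were close, with 14.1 per Mb upstream (2647 regions) and 14.6 downstream (2408 regions). For 1380 regions the strand of the nearest gene was not given.

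**Figure D1:**
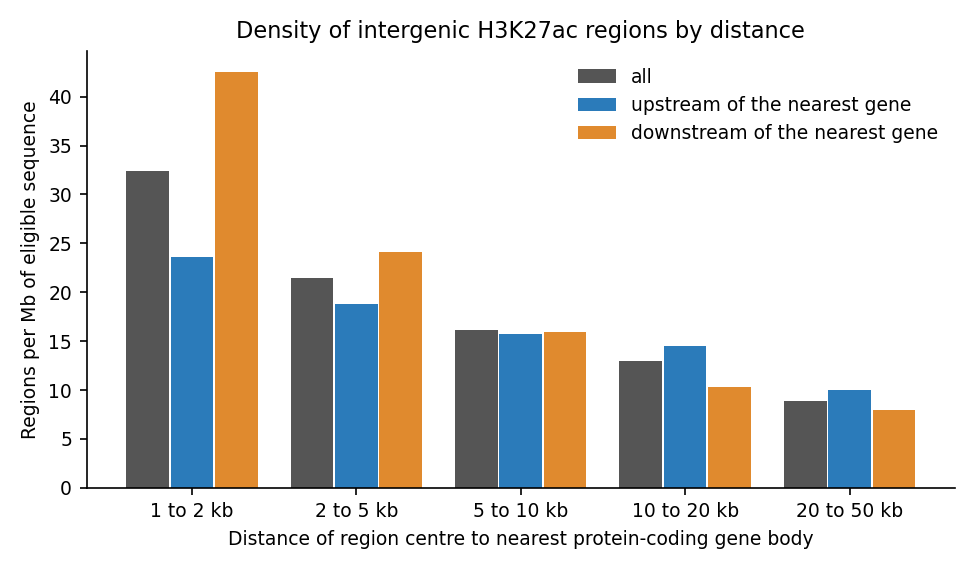
Regions per Mb of eligible sequence (y axis) in 5 bands of distance from the region centre to the nearest protein-coding gene body (x axis), for all regions and for those upstream or downstream of that gene. Density falls from 32.4 per Mb in the nearest band to 8.90 in the farthest, and the downstream bar is the taller one near the gene and the shorter one from 10 kb on.

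The widest regions lay near genes of various functions. The 10 widest measured 9348 to 9982 bp. They lay nearest to Ccnb1ip1, a meiotic crossover gene, Cobl, an actin nucleator gene, the kinase gene Sik1, the pluripotency-associated gene Dppa2, the actin-depolymerizing factor gene Dstn, Nrros, Katnal2, Gnas, Zc3h11a and the aminopeptidase gene Npepps. Distances here and below are those of the region centre from the gene body. The region near Ccnb1ip1 lay at chr14:50794906-50804887 and that near Dppa2 at chr16:48302475-48312264. The centre of the region near Dppa2 lay 2.90 kb from the gene, while its edge reached into the gene, which is annotated from position 48310274. Sik1 was the farthest of the 10 from its region, at 37.4 kb. Of these 10 regions, 1 touched H3.3, the one upstream of Gnas. The share was 4.91% among all the regions near genes and 16.5% among those of 2000 bp and over.

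Summed over regions, a small number of genes stood next to much acetylated intergenic sequence. Of 20665 protein-coding genes on chromosomes 1 to 19, 3754 were the nearest gene of at least 1 region, a background of 18.2%. Of these, 2357 had 1 region, 157 had 5 or more and 95 had over 10 kb in sum, with a median sum of 1228 bp. Ptma, which encodes the abundant nuclear protein prothymosin alpha, had the largest sum, 26164 bp in 8 regions that all lay upstream, at 2.61 to 48.7 kb. Sall1, a zinc-finger transcription factor gene, followed with 24564 bp in 7 regions, of which 6 lay downstream, including regions of 8555 and 7552 bp at 22.6 and 13.0 kb. Rbpj, which encodes the DNA-binding effector of Notch, had 20490 bp in 8 regions, and Irf2bpl had 20185 bp in 9.

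The other genes among the 15 with the largest sums were Klf2, Zfp281, 1810013L24Rik, Enc1, Sec14l1, Serbp1, Spry2, B4galt6, Lrrc74a, Mtcl1 and Gnas, from 20149 bp down to 16297 bp. Zfp281, a zinc-finger factor gene of the pluripotency network, had the largest number of regions of any gene, 13. Of the 15 genes, 12 had another H3K27ac region at an end. Among all genes with 5 or more selected regions, a group that holds these 15, the share was 77.1%, and among all protein-coding genes 39.7%. Klf2, Mtcl1 and Gnas had none, although one of the selected regions itself reached over the start of Klf2. The 5 regions of Gnas, which encodes the stimulatory G protein alpha subunit in an imprinted locus, all lay upstream, at 4.39 to 27.9 kb.

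Genes with more of these regions more often had acetylated ends. A gene end here reaches 1 kb to both sides of the annotated end. Only H3K27ac regions outside the selected ones were counted there, while all H3.3 regions were counted, those touching a selected region included. Of all protein-coding genes 39.7% had such an acetylated end. The share was 35.4% of the genes that were nearest to no region, 55.1% of those with 1, 62.6% with 2, 70.1% with 3 to 4 and 77.1% with 5 or more (121 of 157). Seen from the regions, 4115 of 6435 (63.95%, 62.8 to 65.1%) had a nearest gene with an acetylated end. H3.3 at a gene end followed the same order with a smaller spread, from 15.8% with no such region to 26.8% with 5 or more. Of the H3.3 regions that touched a selected region, 64 had their centre at a gene end, and their part in this order was not tested. The median eligible sequence per gene also rose with the number of regions, from 10.0 kb to 48.96 kb, and its part in the result was not tested. Of the genes that had eligible sequence but were nearest to no region, 31.0% had an acetylated end. A gene nearest to no region can still lie close to one, since 7755 genes had a region within 50 kb.

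**Figure D2:**
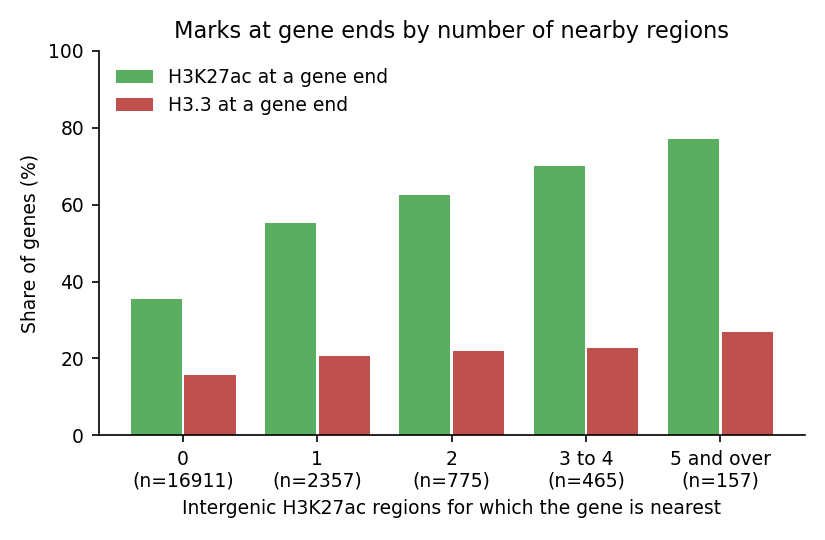
Share of protein-coding genes (y axis, %) with an H3K27ac region or an H3.3 region at an end, by the number of intergenic H3K27ac regions for which the gene is nearest (x axis, with the number of genes). Both shares are lowest at genes that are nearest to no region and highest at genes with 5 or more, where H3K27ac reaches 77.1%.

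Naive pluripotency genes had the most acetylated intergenic sequence of the 13 gene lists compared. Here and below, a gene has a region if it is the nearest protein-coding gene of one, medians are over genes with a region, and the covered share is that of all eligible sequence of the list. Of 29 genes of the list, 22 had a region (75.9%, beside the 18.2% of all protein-coding genes), with a median sum of 5647 bp, beside 1228 bp over the 3754 genes with a region. Of their eligible sequence 11.9% was covered, beside 1.72% over all protein-coding genes. The median eligible sequence per gene was 40.1 kb, beside 12.65 kb over all protein-coding genes, and its part in the gene count was not tested. Of the protein-coding genes with any eligible sequence, 20.98% had a region. Esrrb, Gbx2, Klf4, Lin28a, Stat3, Trim28 and Utf1 were nearest to no region. Trim28 had no eligible sequence, and 6 regions lay within 50 kb of it, as did 3 for Lin28a and 1 for Gbx2. Klf2 led the list with 20149 bp, and 51.5% of its eligible sequence was covered. Its regions of 5973, 6462 and 5619 bp followed each other from 7.92 kb upstream to 2.98 kb downstream, the middle one at chr8:72314538-72320999 reaching over the start whose upstream window is shown above. Smaller regions of 572, 863 and 660 bp lay 24.0 to 28.1 kb upstream. No region of Klf2 touched H3.3.

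Around Zfp281 the regions were many and mostly small. Of the 13, 10 lay upstream and 3 downstream, and 12 were under 3 kb wide, the exception being one of 5560 bp at 28.2 kb upstream. The 6 regions of Zfp42 summed to 13321 bp. The widest of these, 5775 bp, reached over the start with the octamer shown above and touched a 254-bp H3.3 region. Klf5 had 4 regions within 12.3 kb of 1 side of the gene, with the widest, 6254 bp, the farthest away. Prdm14, a regulator of naive and germ cell identity, had 3 regions of 2834 to 4346 bp between 28.3 and 38.1 kb on 1 side, and smaller ones of 503 bp at 1.40 kb and 247 bp at 45.9 kb.

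Nanog, a core homeobox factor gene of pluripotency, had 9 regions with a sum of 10169 bp. The widest, 4146 bp at chr6:122701051-122705196, had its centre 4.37 kb upstream and held a 665-bp H3.3 region. The other 8 measured 206 to 1826 bp and none touched H3.3. Fgf4, a growth factor gene, had an 8043-bp region 4.39 kb upstream, at chr7:144852978-144861020, with a 469-bp H3.3 region inside. The genes of the core factors OCT4 and SOX2 had 1 region each and little eligible sequence. Pou5f1, which encodes OCT4, had a region of 1717 bp at 9.79 kb upstream, and 30.9% of its 9340 bp of eligible sequence was covered, in part by regions nearest to other genes. Sox2 had a region of 1030 bp at 43.6 kb downstream, and 7.31% of its 14090 bp was covered.

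**Figure D3:**
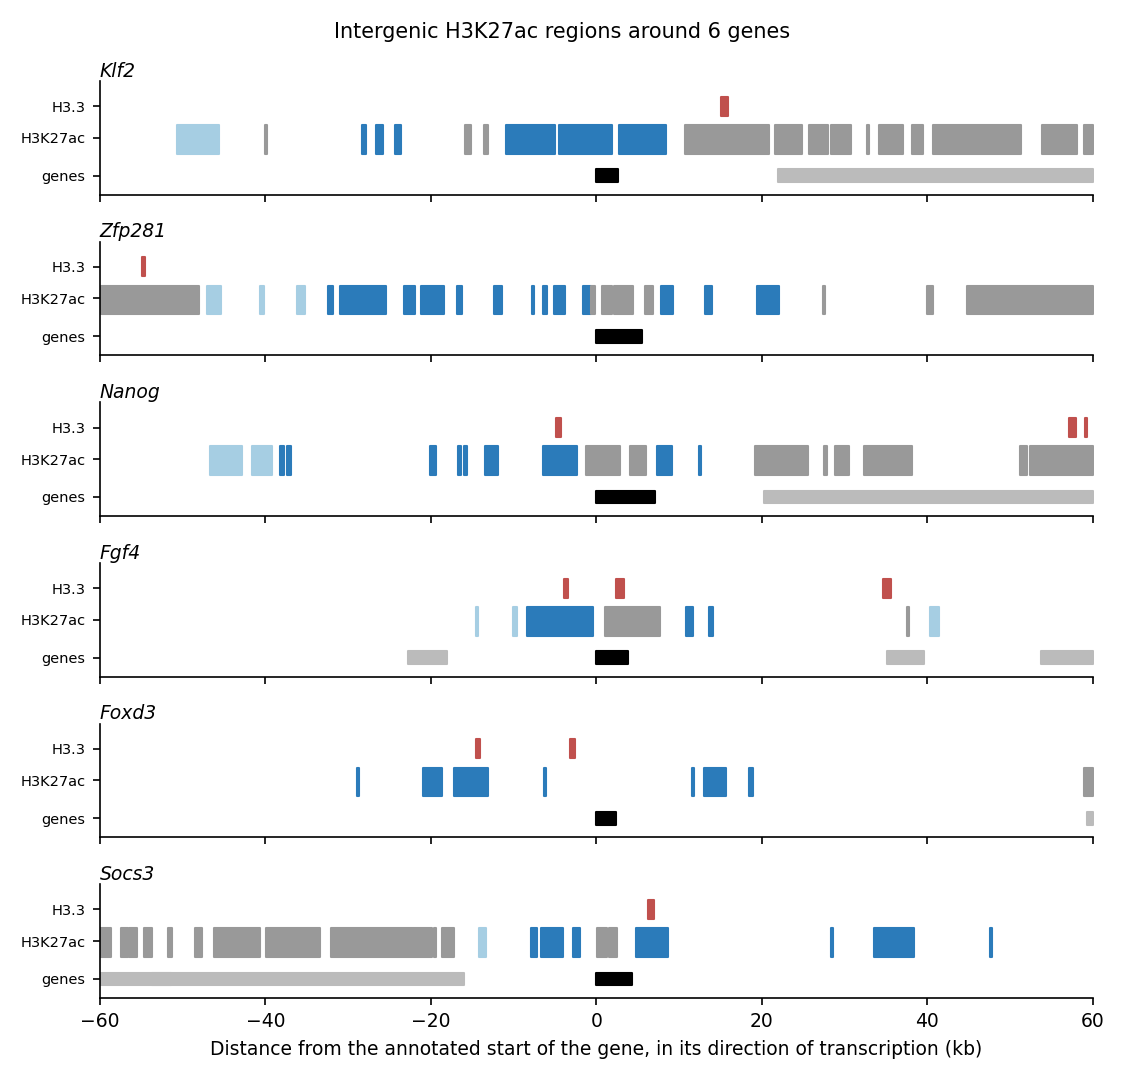
Positions of H3K27ac and H3.3 regions and protein-coding genes around 6 genes (x axis, kb from the annotated start in the direction of transcription). Dark blue marks intergenic regions with the named gene nearest, light blue those nearest to another gene, grey other H3K27ac regions, red H3.3, and black the named gene, and 3 of the 6 regions of Klf2 stand as a near-continuous block over the gene, while those of Zfp281 and Nanog are scattered. Features narrower than 0.25 kb are drawn 0.25 kb wide.

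**Figure D4:**
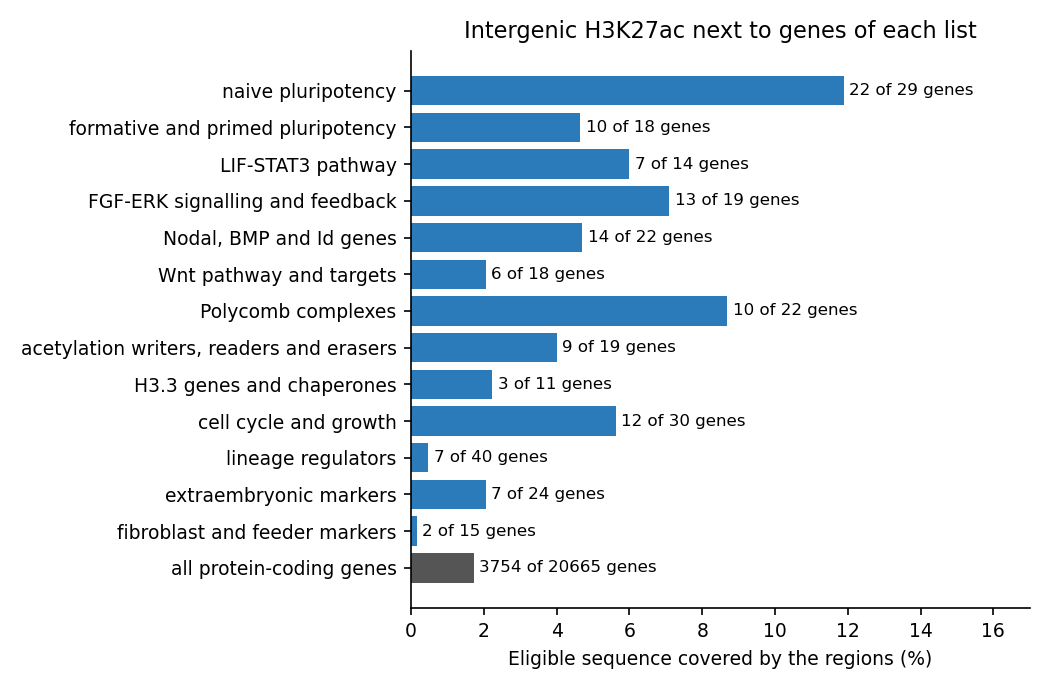
Share of the eligible sequence of the genes of each list that intergenic H3K27ac regions covered (x axis, %), with the number of genes that have a region written at each bar. The naive pluripotency bar is at 11.9%, the bar of all protein-coding genes at 1.72%, and the lineage regulators and fibroblast and feeder markers lie below it.

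Formative and primed genes, which rise as cells leave the naive state, had regions at 10 of 18 genes, with a median sum of 1654.5 bp and 4.65% of eligible sequence covered. Foxd3, a forkhead factor gene of this transition, had 7 regions with a sum of 10167 bp and no H3K27ac region at its ends. Its widest region, 4121 bp at 15.1 kb upstream, held a 555-bp H3.3 region. Lefty2, which encodes an inhibitor of Nodal, had a 7389-bp region with an 885-bp H3.3 region inside. Etv5, an ETS factor gene, had 5503 bp in 3 regions, and Nodal had 3 regions of 807 to 904 bp at 4.59 to 9.52 kb upstream.

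Within the signalling lists, the feedback inhibitor genes Socs3 and Spry2 had the largest sums. In the LIF-STAT3 list, 7 of 14 genes had a region and 5.99% of eligible sequence was covered. Socs3, the feedback inhibitor of the pathway, had 13293 bp in 7 regions, 4 of them downstream, and its 3905-bp region at 2.44 kb downstream held an 802-bp H3.3 region. The receptor subunit gene Il6st had 4 regions. Those of 3831 bp, over its start, and 2328 bp, 24.2 kb upstream, touched H3.3 regions of 384 and 1064 bp, while the smaller ones of 219 and 796 bp did not. Junb and Pim3, an AP-1 gene and a kinase gene, each had 1 region, of 3206 and 3089 bp, and both touched H3.3.

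In the FGF-ERK list, 13 of 19 genes had a region, with 7.10% covered. Spry2, a feedback inhibitor of receptor tyrosine kinases, led with 17352 bp in 7 regions on both sides of the gene, from 1.95 to 40.3 kb away. Fgf4 is on this list too, and Spred2, another feedback inhibitor gene, had 7175 bp in 4 regions. Of the Nodal, BMP and Id genes, 14 of 22 had a region and 4.71% was covered. Bmp4 had 6 regions, none wider than 1349 bp, and Id1, an inhibitor of differentiation and a BMP target, had 2 regions, of 3477 and 518 bp, both touching H3.3. The Wnt list was near the level of all genes in covered length, with regions at 6 of 18 genes, a median sum of 1341.5 bp and 2.05% covered.

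Among chromatin genes the lists differed. Of 22 Polycomb genes, 10 had a region, with a median sum of 3252 bp and 8.68% covered. The 3 genes with the largest sums encode subunits of Polycomb repressive complex 2. Mtf2, an accessory subunit gene, had 10977 bp in 9 regions, Eed, a core subunit gene, 9086 bp in 4 with the widest at 16.9 kb upstream, and Suz12, another core subunit gene, 6519 bp in 3. Ezh2, the gene of its main catalytic subunit, had no region, and Rnf2, a ubiquitin ligase gene of Polycomb repressive complex 1, came next with 5050 bp in 2. Of the 27 regions of this list 0 touched H3.3, beside 4.91% of all the regions near genes. The lists of acetylation genes, H3.3 genes and chaperones, lineage regulators, extraembryonic markers and fibroblast and feeder markers also had 0. These lists held 2 to 16 regions each. Of 19 acetylation writers, readers and erasers, 9 had a region, with a median of 874 bp and 4.00% covered, and Hdac2, a deacetylase gene, led with 3972 bp. Of 11 H3.3 genes and chaperones, 3 had one, H3f3a with 2033 bp in 2 regions, the HIRA chaperone gene Hira with 497 bp and H3f3b with 231 bp.

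Of 30 cell cycle and growth genes 12 had a region, with 5.62% covered. Most of the summed length lay at genes of the MYC family. Myc had 13184 bp in 6 regions on 1 side, the widest of 6221 bp at 20.5 kb, and Mycn had 11830 bp in 8 regions, of which 6 lay downstream. Ccnd1, which encodes cyclin D1, had 1 region of 4934 bp that touched H3.3 regions of 222 and 1326 bp.

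Little of the eligible sequence of lineage regulators and fibroblast markers was covered, although some of these genes had a region. Of 40 lineage regulators, 7 had a region (17.5%, beside 18.2% of all protein-coding genes), with a median sum of 721 bp, and 0.473% of their eligible sequence was covered, beside 1.72%, although the median eligible sequence per gene was 40.1 kb, as for the naive list. Tbx20, of the heart, led with 2802 bp, followed by Pax2 with 2393 bp, Sox1 with 1864 bp and Gsc with 721 bp. Of 15 fibroblast and feeder markers, Col3a1 and Col1a2, collagen genes, had 1 region each, of 362 and 314 bp, and 0.148% of eligible sequence was covered. Of 24 extraembryonic markers 7 had a region (29.2%) and 2.06% was covered. Lamc1, a laminin gene that is also expressed outside extraembryonic tissue, had 12259 bp in 6 regions, and Tfap2c, a trophoblast and germ cell factor gene, 4485 bp in 5. Lrp2, Ascl2, Sox7, Krt18 and Lamb1 had 1 region each, of 247 to 1791 bp. The other 17 genes were nearest to no region, among them the factor genes Gata4, Gata6, Sox17, Cdx2, Elf5 and Eomes, although 2 regions lay within 50 kb of Eomes. Of the naive genes, 22 of 29 had a region. In the lists of other cells 7 of 40, 7 of 24 and 2 of 15 genes had one, beside 18.2% of all protein-coding genes. The lists were chosen with earlier results of these data known, so this count is no independent check of the label of embryonic stem cells. By this count the lists of other cells lay between 13.3% and 29.2%, on both sides of the share of all genes, and the naive list at 75.9%.

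H3.3 touched 316 of the 6435 regions by 1 bp or more, which is 4.91% (4.40 to 5.47%), beside 4.36% of all H3K27ac regions on assembled chromosomes. The share was 3.3% (2.55 to 4.19%) in gene deserts, 1.66% (1.54 to 1.79%) inside genes and 14.6% (13.9 to 15.3%) at gene ends. The intervals of the regions near genes and of those in gene deserts do not overlap, and neither do those of regions near genes and inside genes. Chromosome by chromosome, the share near genes was above that inside genes on 19 of 19, above that in gene deserts on 16 of 19 and above that at gene ends on 0 of 19. These comparisons include regions near genes that reach into a gene or a gene end. With the whole region outside genes and gene ends the share near genes was 3.58%, a value within the interval of gene deserts. The same limit was not applied to gene deserts.

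Wide regions touched H3.3 more often than narrow ones. The share was 1.05% of 2097 regions under 500 bp, 1.24% of 1700 regions of 500 to under 1000 bp, 5.30% of 1453 regions of 1000 to under 2000 bp and 16.5% (14.5 to 18.8%) of 1185 regions of 2000 bp and over. A wider region offers more sequence to touch, and the part of this in the result was not tested. In the widest band the share was 14.0% (10.3 to 18.4%) in gene deserts, an interval that overlaps that of the regions near genes, 5.18% (4.67 to 5.73%) inside genes and 27.3% (25.2 to 29.5%) at gene ends. With each class weighted to the same widths, the regions near genes were 1.27 percentage points above gene deserts and 3.21 above regions inside genes, beside 1.61 and 3.25 without weighting. The difference from gene ends was -9.42 percentage points with weighting and -9.67 without.

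**Figure D5:**
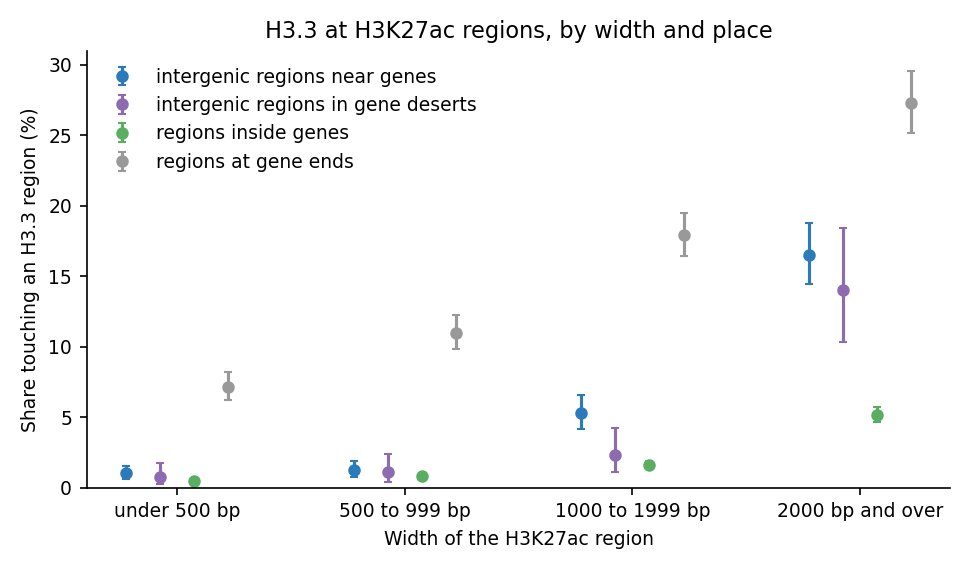
Share of H3K27ac regions that touch an H3.3 region (y axis, %) by width of the H3K27ac region (x axis) in 4 classes, with exact 95% intervals over regions as bars. Intergenic regions near genes rise from 1.05% to 16.5%, lie below gene ends in each band, and overlap with gene deserts in each band.

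By distance, H3.3 was most frequent next to genes. Between 1 and 2 kb, 8.25% (6.48 to 10.3%) of regions touched H3.3, and in the 4 farther bands 4.16 to 4.68% did. Regions of the nearest band were also wider, with a median of 991 bp beside 726 to 824 bp, and the part of this was not tested. In the nearest band the touched H3.3 region often had its own centre at a gene end, and counting only H3.3 regions with an intergenic centre gave 2.87% there and 3.68 to 4.61% farther out. Upstream regions touched H3.3 in 5.74% (4.89 to 6.70%) and downstream regions in 3.28% (2.61 to 4.07%) of cases.

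The H3.3 regions involved were of ordinary width and mostly lay within the acetylated region. There were 331, of which 265 had an intergenic centre, 64 a centre at a gene end and 2 a centre inside a gene. Their median width was 460 bp, beside 452.5 bp over all H3.3 regions. Of 333 pairs, 246 had the H3.3 region wholly inside the acetylated one. The 316 acetylated regions had a median width of 2830 bp, beside 768 bp for the other 6119, and 15 touched more than 1 H3.3 region. Seen from H3.3, 553 of its regions were placed between genes by the same limits, and 265 of them (47.9%) touched one of the selected H3K27ac regions. For 71 of the 316 (22.5%) the nearest gene had another H3.3 region at an end, beside 21.3% of the regions that did not touch H3.3.

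The 10 widest regions with H3.3 measured 8147 to 9367 bp. They lay nearest to Gnas, the germ cell gene Nanos3, the actin regulator gene Enah, Cipc, Nacc1, Vwa3b, Adam23, the homeobox repressor gene Tgif1, the linker histone gene H1f3 and the lipid receptor gene S1pr2. The region nearest to H1f3 reached over that gene, annotated at chr13:23555032-23555807. Its H3.3 region, 775 bp at chr13:23555136-23555910, overlapped the gene body. The H3.3 regions touched by these 10 regions differed in width. The 9367-bp region of Gnas, at chr2:174258713-174268079 and holding the hairpins of Mir296 and Mir298, touched a single H3.3 region of 273 bp. That of Tgif1, 8368 bp at 9.18 kb upstream, touched one of 2073 bp. Nacc1 had a region of 8529 bp that held an H3.3 region of 1052 bp and met the edge of one of 2703 bp by 39 bp, and the region of Nanos3, 9059 bp at 14.2 kb upstream, touched ones of 794 and 454 bp. At the genes of the naive list, 7 of 80 regions touched H3.3. Among all the regions near genes the share was 4.91%, and among those of 2000 bp and over it was 16.5%. The 7 regions of the naive list lay at Nanog, Zfp42, Fgf4, Dppa3, Rif1, Tbx3 and Tcl1. These included narrow ones, such as a 230-bp region 1.64 kb from Dppa3 that touched an H3.3 region of 229 bp.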

How the data were processed

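Consensus regions from CUT&RUN in E14 cells were deposited by the authors as positions only (chromosome, start, end; no other unit, score or value per library). Per the submitters' processing notes, the tools were Bowtie2, SAMtools, deepTools and MACS2 and the build mm10. For their roles, their versions and the way libraries were combined, nothing is given in the sources used here. H3.3 and H3K27ac libraries differed in nuclease fusion and stop buffer, per the labels' protocols. Starts were raised by 1. Genes came from RefSeq (GRCm38.p6, 49943 genes on assembled chromosomes), with strand from its promoter table. Regions were placed by their centre, and eligible sequence was measured on a 10-bp grid. Placement was tested on simulated data. Python 3.11.15, pandas 2.3.3, NumPy 2.4.6 and SciPy 1.17.1 were used.

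The regions, the 13 gene lists (286 entries, 269 distinct names, 5 of them off chromosomes 1 to 19) and the motifs were chosen with earlier results of these data known. Genes named are those of the 10 widest regions, the 15 largest sums, up to 4 per list, the 10 widest regions with H3.3 and those next to each limit. Other names were chosen after their values were seen. Sequence of the regions themselves was not analysed here. Shares are descriptions without a test, because regions and genes are not replicates. Alternatives covered the gene-end distance, biotypes, the 50 kb limit, width, placement, overlap, gap and gene assignment. H3K122ac, control libraries and genotypes were not analysed here.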

Additional observations from a re-analysis of the deposited data

How the results depend on the processing

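The number of regions stayed between 4338 and 8362 under the 5 alternative limits, beside 6435. With a gene-end distance of 2.5 kb, 4.22% touched H3.3, 14.5% of protein-coding genes were the nearest gene of a region and 77.4% had another region within 12500 bp. With protein-coding genes only, the first 2 shares were 5.48% and 21.4%. With a limit of 25 kb, 16.3% of genes had a region, 66.05% of regions had a nearest gene with an acetylated end and 83.3% had a neighbour. Among regions of at least 500 bp the median width was 1212.5 bp, 6.78% touched H3.3, 13.6% of genes had a region, 66.3% of regions had a nearest gene with an acetylated end and 83.2% had a neighbour. With the whole region outside genes and gene ends, 3.58% touched H3.3, 16.4% of genes had a region and 78.2% of regions had a neighbour. With at least 50% of the H3.3 region inside, 4.37% touched it. With gene ends of 500 bp, 55.4% of regions had a nearest gene with an acetylated end, and with a gap of 5 kb, 62.5% had a neighbour. The alternatives' own construction, with fewer or other regions, changes these values. Counting each region for every gene within 50 kb gave 7755 genes (37.5%) and over 1.5 times the count for acetylation genes (14), H3.3 genes and chaperones (5), extraembryonic markers (11) and fibroblast markers (4), while cell cycle genes came to 18 and the naive list to 25.

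No paired analysis was possible because the lists carry no value per library, and leaving out a replicate was not possible for the same reason. Depth is unknown, so a region that is missing from a list need not lack the mark.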
